A study of Arabidopsis thaliana with 12 samples.

Results

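The comparison described here set tunicamycin against mock in Arabidopsis thaliana seedlings that lack both IRE1 genes. It used the 6 arrays labelled ire1a/ire1b among the 12 of the series, 3 with tunicamycin and 3 with mock, chosen by their labels alone. The seedlings were 10 days old, of the Columbia (Col-0) ecotype, grown at 22 °C. Every group, controls included, was given actinomycin D at 75 µM, which blocks transcription. After 2 h either tunicamycin (5 mg per litre) or, as mock, DMSO alone was added for 5 h. The 6 wild-type arrays, 3 per treatment, are used to show where the mutant differed and to choose probe sets followed in the mutant. They also enter the signal filter and the estimate of spread behind every mutant SE and p-value. The labels name no ire1a or ire1b allele. They are also silent on whether replicates were separate cultures, so the p-values measure a spread that may be technical.

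Tunicamycin blocks the first step of N-linked glycosylation, so that unfolded proteins accumulate in the endoplasmic reticulum (ER). Plants sense this along 2 arms. IRE1, an ER membrane kinase and RNase, splices the mRNA of the transcription factor bZIP60 and also degrades mRNAs on the ER surface. The other arm uses the membrane-anchored factors bZIP28 and bZIP17, which move to the Golgi, are cut there by the S1P and S2P proteases and then switch on genes for chaperones and for disposal of misfolded proteins. Without IRE1 the second arm remains. The bZIP60 branch of IRE1 and the second arm both end in transcription, which actinomycin D was present to block. The degradation of mRNAs by IRE1 does not. The comparison therefore asks which transcript levels still moved with neither IRE1 nor normal transcription.

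The values are MAS5 signals, a linear brightness per probe set, with a 2% trimmed mean of about 500.1 on each array. Changes are log2 differences, tunicamycin minus mock, with the standard error (SE) of a limma model fitted to all 12 arrays, and a probe set was called at a Benjamini-Hochberg adjusted p below 0.05 over 13647 tested probe sets. Replicates varied more in the mutant than in wild type. The median SD (log2, n = 3) was 0.19 and 0.21 in the mutant mock and tunicamycin arrays, against 0.16 and 0.15 in wild type. The model pools the spread of all groups, so a probe set has the same SE in both genotypes. The SEs, intervals and p-values of the mutant may therefore be too small on average. In the mutant, mock and tunicamycin arrays of the same number deviated together from their group means (correlations over probe sets of 0.11, 0.44 and 0.51). A fit with these numbers as pairs is therefore given wherever it changed a call. Mock array 2 and tunicamycin array 1, of different numbers, correlated at 0.16, above the 0.11 of pair 1, so the support for pair 1 is weak. The arrays numbered 2 and 3 stood apart from each other: mock array 2 and tunicamycin array 3 correlated at -0.46, and mock array 3 and tunicamycin array 2 at -0.41. Median results are therefore also given without both arrays numbered 3. The 3' over 5' ratio of the control transcripts (log2) was 2.246, 2.23 and 2.12 in the mutant mock arrays and 2.15, 2.59 and 2.202 with tunicamycin, where array 2 stood above the rest, and an exact permutation test of 3 arrays against 3 cannot give a p below 0.1. The mutations were not checked on the arrays, since neither IRE1A nor IRE1B has a named probe set here. The shoot marker RCA, encoding rubisco activase, changed by 0.03 ± 0.08, and EXPA7, the only root hair marker with a named probe set, was too dim to be tested, with a signal of 80.9 ± 15.2 in mock and 57.2 ± 11.8 in tunicamycin arrays (SD, n = 3). These are whole seedlings, so fewer cells of a type and less RNA per cell cannot be told apart.

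Tunicamycin left a small response in ire1a ire1b. Of 13647 probe sets 6 rose (0.044%) and 0 fell. Before adjustment, 319 were higher (2.34%) and 182 lower (1.33%) at a p below 0.05. Together they lie below the share of 0.05 that this threshold gives with no response, so these counts show no wider response. With the replicate numbers as pairs 15 rose (0.11%) and 0 fell, and all 6 rises were among those 15. In wild type, by the same test, 59 rose (0.432%) and 788 fell (5.77%). The count of 6 was 3 when tunicamycin array 1 of the mutant, its mock array 2, its mock array 3 or wild-type tunicamycin array 2 was left out. It was 2 without both mutant arrays numbered 3, and 1 in a fit of only the 6 mutant arrays.

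Of the 6 rises 3 were of 1 named gene. AT4G34630 had signals of 260.4, 164 and 281 in the mutant mock arrays and 691, 643 and 729 with tunicamycin. Every tunicamycin array lay more than 2-fold above every mock array. The change was 1.58 ± 0.18 (95% interval 1.20 to 1.97), a 2.998-fold rise with an adjusted p of 0.0026, and it passed without any 1 of the 12 arrays. Wild type had 1.97 ± 0.18, and the difference between the genotypes, -0.39 ± 0.25 (mutant minus wild type), did not pass (adjusted p = 0.65).

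AT4G29520, named SES1 in Arabidopsis, encodes an ER chaperone needed for salt tolerance. Its signals were 260.0, 215 and 239 in mock and 593, 417 and 753 with tunicamycin, again without overlap and with array 3 highest. It rose by 1.27 ± 0.19 (2.41-fold, adjusted p = 0.028, and 0.0046 with pairs). The wild-type rise was of the same size, 1.28 ± 0.19, with a genotype difference of -0.02 ± 0.27 whose 95% interval ran from -0.59 to 0.56. In 9 of the 12 fits that left out 1 array the mutant rise missed the threshold, with an adjusted p of up to 0.16, and it held only without wild-type tunicamycin array 1, mutant tunicamycin array 2 or wild-type mock array 3. Without both mutant arrays numbered 3 it was 1.07 (adjusted p = 0.26).

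AT4G35985 behaved differently in the genotypes. In the mutant its signals went from 109.7, 117 and 99.1 to 256, 219 and 301, while wild type had 135, 174 and 127 in mock and 193, 159 and 142 with tunicamycin. The mutant groups were apart and the wild-type groups overlapped. The mutant change was 1.25 ± 0.18 (adjusted p = 0.023), the wild-type change 0.18 ± 0.18, and their difference 1.06 ± 0.25 passed (adjusted p = 0.037). The mutant rise was lost in 7 of the 12 fits without 1 array (adjusted p up to 0.12) and the difference in 8 (up to 0.11, without wild-type mock array 2). Without both mutant arrays numbered 3 the rise was 1.07 (adjusted p = 0.34).

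The other 3 rises were probe sets with no gene listed in the platform table used here. One of them, 247293_at, went from 42.8, 33.6 and 34.4 in mock to 178, 149.7 and 172 with tunicamycin in the mutant, and from 21.1, 46.4 and 38.5 to 611, 575 and 610.1 in wild type. Its mock signals lay below the filter value of 68.7, so it passed the filter only through its tunicamycin arrays, and the sizes of its changes are uncertain. The fitted changes were 2.18 ± 0.25 in the mutant (adjusted p = 0.0026) and 4.16 ± 0.25 in wild type. Its tunicamycin signals were lower in the mutant than in wild type on every array. Probe set 261485_at, at 128, 128 and 154 in mock and 388, 321 and 416 with tunicamycin, rose by 1.46 ± 0.16 (adjusted p = 0.0026) and had 1.12 in wild type. Probe set 266203_at, at 147, 129 and 157 in mock against 462, 299 and 661, rose by 1.65 ± 0.23 (adjusted p = 0.023). Its wild-type change of 0.41 did not pass (adjusted p = 0.45), and the difference of 1.24 ± 0.33 had an adjusted p of 0.064, and 0.0079 with pairs. Thus 4 of the 6 rises (AT4G34630, AT4G29520, 261485_at and 247293_at) were also called in wild type, against 0.432% of all tested probe sets. Without 247293_at these counts are 3 of 5. Both genotypes share the estimate of spread, so a probe set with a small SE is favoured in both calls.

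With same-numbered arrays as pairs, 9 further probe sets rose, 7 of them of 1 named gene. AT5G07340, a calnexin, is a membrane lectin that holds glycoproteins in the ER until they fold. Its signals were 511, 416 and 557 in mock and 830.3, 762 and 922 with tunicamycin in the mutant, without overlap. The change was 0.77 ± 0.14 (1.70-fold, adjusted p = 0.12 without pairs and 0.022 with them), beside 0.71 ± 0.14 in wild type, where it passed (adjusted p = 0.0045). GSTU22, a tau-class glutathione S-transferase that conjugates electrophiles to glutathione, had 979, 608 and 708 in mock and 1454, 1190.0 and 1475 with tunicamycin. Its change of 0.87 ± 0.16 had an adjusted p of 0.17, and 0.012 with pairs.

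AT4G39190 had 76.4, 88.2 and 96.1 in mock and 188, 150.4 and 327 with tunicamycin, a change of 1.28 ± 0.24 (adjusted p = 0.17, and 0.043 with pairs). AT5G40980, which is named because the paired fit called it, had 0.76 ± 0.20 (adjusted p = 0.65, and 0.045 with pairs), and its groups, 431, 334 and 475 against 657, 511 and 979.5, were apart. The remaining 3 named genes, AT3G14780, AT3G47540 and AT4G36430, are described with the genotype differences. The 2 probe sets with no gene listed were 258122_at (1.81 ± 0.36, adjusted p = 0.21, and 0.031 with pairs) and 259040_at (1.14 ± 0.24, adjusted p = 0.23, and 0.0085 with pairs). With pairs their differences from wild type also passed (1.72 and 1.24, adjusted p = 0.022 and 0.0029). Of the 15 paired calls 10 were of 1 named gene and 5 had also risen in wild type, against 0.432% of all tested probe sets.

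**Figure D1:**
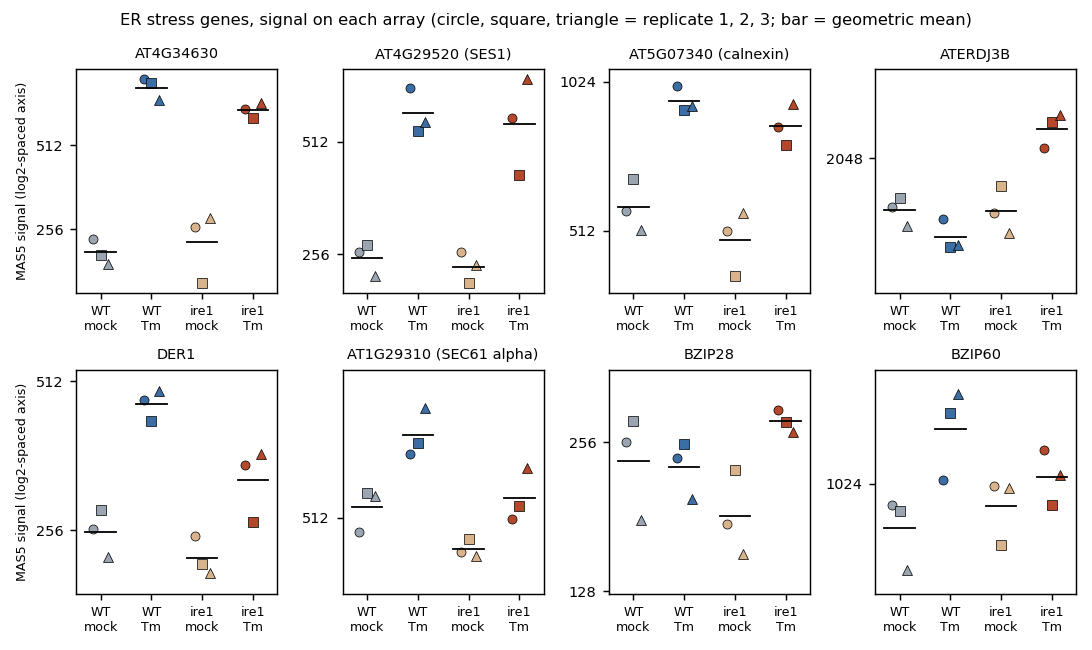
MAS5 signal (log2-spaced axis) of AT4G34630, which is on none of the ER lists, and 7 ER genes on each of the 12 arrays, by genotype and treatment, with each point 1 array. AT4G34630 and AT4G29520 are apart between mock and tunicamycin in both genotypes, while BZIP28 and ATERDJ3B are apart only in ire1a ire1b.

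Across the ER lists the mutant's response was shallow and mostly upward. The 5 lists (folding, disposal, N-glycosylation, translocation and export, and sensors) name 96 genes, of which 28 have a named probe set and 26 were tested. Of these 26, 1 rose (AT4G29520), and 9 had a higher and 0 a lower level at an unadjusted p below 0.05, where all named genes tested gave 0.0413% for the adjusted rise, 2.29% for higher and 1.4% for lower. In 19 of 26 the change was above 0, against 52.7% of all tested probe sets. The median change was 0.16, against 0.01 over all named genes, and the 3 pairs gave medians of 0.23, 0.22 and 0.12. It was 0.20 without both arrays numbered 3. In 8 of 26 all 3 tunicamycin arrays were above all 3 mock arrays, which held for 3.96% of all tested probe sets. In wild type 5 of the 26 rose, against 0.432% of all tested probe sets.

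The folding helpers came highest of the 5 ER lists by median, but not without both arrays numbered 3, when degradation (0.28) and the sensors (0.26) lay above them. Among the 7 tested of 29 listed genes 1 rose and 5 had an unadjusted p below 0.05, all higher, with a median of 0.35 (0.18 without both arrays numbered 3) against 0.11 in wild type. ATERDJ3B, a J-domain co-chaperone of the ER Hsp70 BiP, had 1584, 1797 and 1445 in the mutant mock arrays and 2142, 2416 and 2501 with tunicamycin. Wild type had 1628, 1697 and 1494 in mock against 1544, 1354 and 1364. The mutant groups were apart, and the wild-type groups overlapped with tunicamycin mostly the lower. The mutant change of 0.55 ± 0.11 did not pass (adjusted p = 0.21), and the difference from wild type, 0.73 ± 0.16, did (adjusted p = 0.02), though it was lost in 7 of the 12 fits without 1 array (adjusted p up to 0.065).

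The other folding genes had changes that did not pass. CRT1b, a calreticulin that binds folding glycoproteins, had 2725, 2522 and 2759 in mock and 2993, 2927 and 4250.0 with tunicamycin, 0.32 ± 0.13, with tunicamycin array 3 well above the other two. AT4G16660, an ER heat shock protein of the Hsp70 superfamily, had 818, 764 and 682 in mock against 1007, 780.3 and 1113, 0.35 ± 0.13, with overlap. PDIL5-1, a protein disulphide isomerase that forms disulphide bonds, had -0.04 ± 0.13, and the cyclophilin-type prolyl isomerase gene AT3G55920 had -0.07.

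ER-associated degradation extracts misfolded proteins from the ER for the proteasome. Of its 6 tested genes (18 listed) 0 passed and 2 had an unadjusted p below 0.05, both higher. The median was 0.22 (0.28 without both arrays numbered 3) against 0.19 in wild type. DER1, of the Derlin family of the extraction channel, had 249, 219 and 210.1 in mock and 347, 266 and 365 with tunicamycin, so the groups were apart. Its change was 0.52 ± 0.15 (95% interval 0.20 to 0.84, adjusted p = 0.85), against a called 0.86 ± 0.15 in wild type (adjusted p = 0.002). The difference of -0.34 ± 0.21 did not pass. AT4G29960, named EBS7 in Arabidopsis, encodes an ER membrane protein of the same pathway and had 357, 363 and 253 in mock against 493, 434 and 359, 0.41 ± 0.17, with overlapping groups. UBC32, an ER-bound ubiquitin-conjugating enzyme, had 0.27, DER2.1 0.18, DER2.2 0.00, and OS9, a lectin that recognises trimmed glycans, 0.13.

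The genes of N-glycosylation, the step that tunicamycin inhibits, had changes between -0.02 and 0.15. Of 4 tested (21 listed) 0 passed even at an unadjusted p of 0.05. The median was 0.07 (0.11 without both arrays numbered 3) against -0.06 in wild type. GPT, the transferase that tunicamycin blocks, had 0.15 ± 0.21 (95% interval -0.31 to 0.60), and its homologue AT3G57220 had 0.15 ± 0.21. AT2G01720 had -0.01 and AT1G76400 -0.02, both of the ribophorin family of the oligosaccharyltransferase, which transfers the glycan to proteins.

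For translocation into the ER and export from it, 4 of 13 listed genes were tested, 0 passed and 1 had an unadjusted p below 0.05. AT1G29310, an alpha subunit of the Sec61 channel, had 437, 464 and 428 in mock and 509, 540.2 and 644 with tunicamycin, which did not overlap. Its 0.34 ± 0.13 (adjusted p = 1.0) compares with a called 0.48 ± 0.13 in wild type. A second Sec61 alpha gene, AT2G34250, had -0.08, SEC22, a fusion protein of ER to Golgi vesicles, 0.02, and AT3G63460, of the Sec31 coat family, -0.24.

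Among the 5 tested sensors and regulators (15 listed) 0 passed and BZIP28 alone had an unadjusted p below 0.05. Its signals in the mutant were 175, 226 and 152 in mock and 297, 281 and 268 with tunicamycin, and in wild type 257, 283 and 178 in mock against 238, 254 and 197. The mutant groups were apart and the wild-type groups overlapped. The change was 0.63 ± 0.19 (95% interval 0.22 to 1.04, adjusted p = 0.93, and 0.26 with pairs), and the difference from wild type, 0.67 ± 0.27, did not pass (adjusted p = 0.32). BZIP60, whose mRNA IRE1 splices, had 0.20 ± 0.17 in the mutant and a called 0.67 ± 0.17 in wild type (adjusted p = 0.035), and this difference of -0.47 ± 0.25 did not pass either (adjusted p = 0.53). The protease genes that release bZIP28 had 0.24 ± 0.19 (AT4G20310, S2P) and 0.06 (S1P), and BZIP17 had -0.11.

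**Figure D2:**
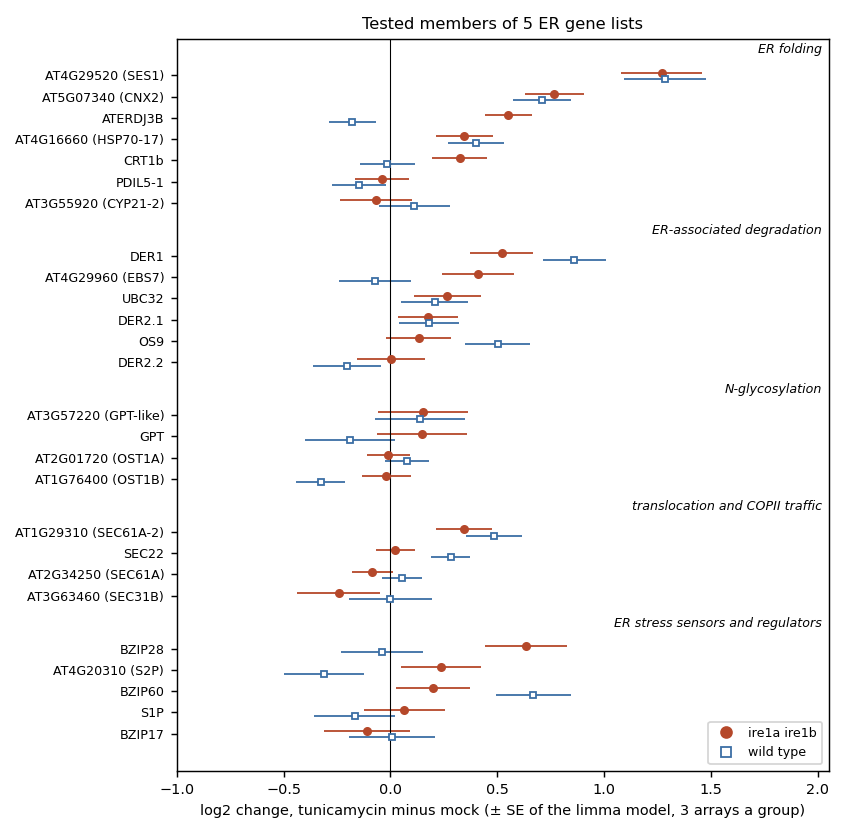
Log2 change with tunicamycin (± SE of the limma model, 3 arrays a group) of each tested member of the 5 ER lists in ire1a ire1b (filled) and wild type (open). Most mutant values sit between 0 and 0.63, AT4G29520 alone passed the test in the mutant, and the N-glycosylation genes lie around 0.

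For another set of transcripts the response itself differed between the genotypes. Over all probe sets the mutant's change was higher than that of wild type in 406 (2.98%) and lower in 12 (0.0879%), by the interaction term of the limma model. With pairs these counts were 713 and 32, but that fit also pairs the wild-type arrays, whose numbers did not meet the rule for pairing, as holds for every genotype difference given with pairs. Most of the higher ones, 393 of 406, were transcripts that fell in wild type, against 5.77% of all tested probe sets. The interaction subtracts the wild-type change, so a fall in wild type itself favours a higher value. Among the 406, AT3G47540, of a chitinase family, was a gene whose mutant level moved. It had 285, 186 and 392 in the mutant mock arrays and 704, 600.2 and 1364 with tunicamycin, where wild type had 262, 218 and 452 in mock against 166, 177 and 235. In the mutant every tunicamycin array lay above the mock arrays, and in wild type the groups overlapped with tunicamycin lower. The mutant change was 1.60 ± 0.34 (adjusted p = 0.24, and 0.0012 with pairs), wild type had -0.63 ± 0.34, and the difference of 2.23 ± 0.48 passed (adjusted p = 0.019). The difference was lost without wild-type tunicamycin array 1 or 2 (adjusted p up to 0.061) and held in the other 10 fits without 1 array.

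AT3G14780 had 96.7, 106 and 101 in mutant mock and 339.7, 216 and 639.8 in mutant tunicamycin arrays, with array 3 the highest and array 2 the lowest. Wild type had 86.2, 83.8 and 104 in mock against 109, 83.2 and 72.3, which overlapped. The mutant change of 1.83 ± 0.30 (95% interval 1.19 to 2.48) had an adjusted p of 0.061, and 0.023 with pairs, and was 1.42 without both arrays numbered 3. The difference from wild type was 1.90 ± 0.43 (adjusted p = 0.025), lost in 8 of the 12 fits without 1 array (adjusted p up to 0.069) and held when mutant mock array 2, either of mutant tunicamycin arrays 2 and 3, or wild-type tunicamycin array 1 was the one left out.

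Class III peroxidases are secreted enzymes of the cell wall that use hydrogen peroxide. Of 35 tested (73 listed) 0 passed in the mutant and 1 (AT4G36430) rose with pairs, where 0.11% of all probe sets did. At an unadjusted p below 0.05, 5 were higher and 0 lower, against 2.29% and 1.4% of all named genes. The median was 0.11 against -0.63 in wild type, where 15 fell, against 5.77% of all probe sets. The median was 0.01 without both arrays numbered 3. AT4G36430 had 757, 749 and 1013 in mock and 1260.0, 1217 and 1915 with tunicamycin in the mutant, against 947, 623 and 913 in mock against 541, 434 and 579 in wild type. The groups were apart in both genotypes, upward in the mutant and downward in wild type. The mutant change of 0.78 ± 0.21 had an adjusted p of 0.62, and 0.01 with pairs. Its difference from the wild-type -0.66 ± 0.21 was 1.45 ± 0.29 (adjusted p = 0.013) and passed without any 1 array. AT3G21770 had 2406, 2435 and 2255 in mock against 2808, 3520.3 and 4078 in the mutant, 0.54 ± 0.15 (adjusted p = 0.7), and its difference from wild type, 1.03 ± 0.21 (adjusted p = 0.012), also passed without any 1 array. AT2G18980, at 0.55 ± 0.22 in the mutant, differed by 1.32 ± 0.32 (adjusted p = 0.036), which was lost in 9 of the 12 fits (adjusted p up to 0.097).

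**Figure D3:**
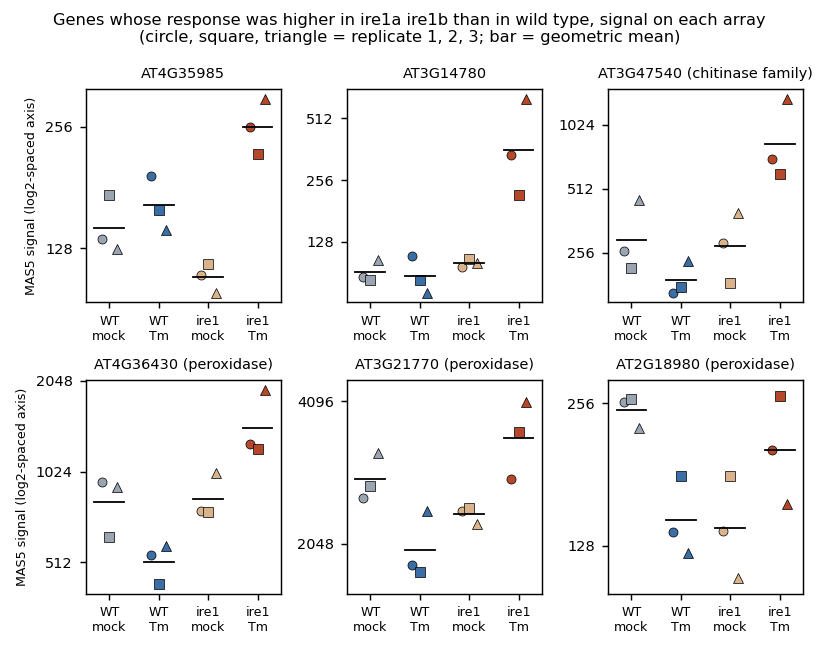
MAS5 signal (log2-spaced axis) on each of the 12 arrays of 6 genes whose response to tunicamycin was higher in ire1a ire1b than in wild type by the interaction term, with each point 1 array. In the mutant the tunicamycin points sit above the mock points in all but AT2G18980, whose groups overlap, and in AT4G35985, AT3G14780, AT3G47540, AT4G36430 and AT3G21770 array 3 is the highest.

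Few members of the lists other than the ER lists changed in the mutant: none passed without pairs, and GSTU22 and AT4G36430 rose with them. Of 9 tested glutathione S-transferases (38 listed) 2 had an unadjusted p below 0.05, both higher, against 2.29% of all named genes. The median was 0.12 (0.05 without both arrays numbered 3) against 0.15 in wild type. Of 11 listed heat shock genes only ATHSP22.0, a small heat shock protein, at 0.67 ± 0.27, and AT1G53540, another, at 0.42 ± 0.38, were tested. Their median was 0.54 in the mutant, with -0.03, 1.13 and 0.53 in the 3 pairs and 0.55 without both arrays numbered 3. It was -0.40 in wild type. The 2 tested genes of alternative respiration (6 listed) had a median of 0.12, and 0.30 without both arrays numbered 3. The 3 tested short-lived transcripts (16 listed), which decay fast when transcription stops, had -0.50 ± 0.24 (CML38, a calmodulin-like protein), 0.22 ± 0.26 (STZ, a zinc finger repressor) and -0.10 ± 0.18 (WRKY53, a senescence factor).

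Next by p among the rises that did not pass were AT5G13880 and AT5G13200. AT5G13880 had 97.9, 97.8 and 95.4 in mock and 169.9, 157 and 237 with tunicamycin, 0.93 ± 0.18 (adjusted p = 0.19), beside a called 0.80 ± 0.18 in wild type. AT5G13200, a GRAM domain gene, had 136, 156 and 179 in mock against 270.4, 301 and 260.0, 0.83 ± 0.16 (adjusted p = 0.19), beside 0.15 ± 0.16 in wild type. In both the mutant groups were apart. AT1G13340 (1.16 ± 0.24), AT3G26470 of the RPW8 domain family (0.58 ± 0.12), AT3G60070 of the major facilitator transporters (0.61 ± 0.14), AT4G17420 (0.75 ± 0.17) and the aspartyl protease gene AT5G22850 (0.58 ± 0.14) had adjusted p values from 0.22 to 0.39.

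No probe set fell in the mutant at an adjusted p below 0.05. The named genes with the smallest p in that direction had changes from -1.10 to -0.54, and adjusted p values of 0.31 or more. AT5G07580, an ethylene response factor gene, had 127, 174 and 142 in mock and 96.0, 51.8 and 84.1 with tunicamycin, -0.97 ± 0.21 (adjusted p = 0.31). TRI, a tropinone reductase homologue, had 224, 203 and 191 in mock against 139, 131 and 136, -0.60 ± 0.15 (adjusted p = 0.49). In both the groups were apart. AT4G14100 had 269.8, 248 and 215 in mock against 164, 164 and 175, -0.54 ± 0.14 (adjusted p = 0.62). It is a gene that fell in wild type, by 0.56 (adjusted p = 0.028), and the genotype difference was 0.02 ± 0.20 (95% interval -0.40 to 0.45).

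Other genes of this group were AT3G13760 (-0.95 ± 0.23), AT1G74940 (-0.86 ± 0.21, with a difference from wild type of -1.06 that passed with pairs at an adjusted p of 0.031), AT1G27210 (-0.73 ± 0.20), the J-domain gene AT5G05750 (-0.69 ± 0.20), AT5G61450 (-0.67 ± 0.20) and the cytochrome P450 gene CYP71B37 (-0.74 ± 0.22). AT5G49100 had -1.10 ± 0.30 and differed from wild type by -1.73 ± 0.42 (adjusted p = 0.04), but its mutant tunicamycin signals of 52.4, 33.8 and 26.6 lay below the filter value of 68.7, and the difference was lost in 9 of the 12 fits without 1 array.

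The 59 probe sets that rose in wild type can be followed in the mutant, whose arrays had no part in choosing them beyond the shared estimate of spread and the signal filter. Of the 59, 49 (83.1%) had a mutant change above 0, where 52.7% of all tested probe sets did. At an unadjusted p below 0.05, 18 were higher (30.5%, where 2.34% of all were) and 1 was lower. In 23 (39.0%) all mutant tunicamycin arrays lay above all mock arrays, against 3.96% of all. The median mutant change was 0.22, with 0.25, 0.16 and 0.30 in the 3 pairs and 0.18 without both arrays numbered 3. The wild-type median of 0.73 is inflated because these probe sets were chosen on it. The interaction passed in 8, all lower in the mutant, against 0.0879% of all tested probe sets. It subtracts the wild-type change on which the 59 were chosen, so the choice favours this direction. Among the 8 were 247293_at, 257490_x_at, 264252_at and AT1G10980. Their mean wild-type mock signals of 35.3, 52.0, 50.1 and 56.9 lay below the filter value of 68.7. Their wild-type tunicamycin arrays helped them to pass the filter, which also favours this direction. Of the 59, 16 rose 2-fold or more in wild type, and 6 had a mutant change that large. Among these 6, the 18 and the 23 were 247293_at and 258984_at. Their mean mock signals were 36.9 and 54.2 in the mutant and 35.3 and 45.5 in wild type, below the filter value of 68.7. They passed the filter only through tunicamycin arrays, so the sizes of their changes are uncertain. Probe set 257490_x_at, among the 59 and the 23, passed only through wild-type tunicamycin arrays (mean 439.4). The counts were not repeated without such probe sets.

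Named examples differed in how much of the wild-type change the mutant showed. AT5G54860, a membrane transporter of the major facilitator superfamily, had 184, 214 and 156 in mutant mock and 265, 279 and 321 in mutant tunicamycin arrays, 0.65 ± 0.19 against 1.26 ± 0.19 in wild type. AT3G60540, of the Sec61 beta family of the translocation channel, had 353, 368 and 280.1 in mock against 527, 376 and 403, 0.38 ± 0.15 against 0.98 ± 0.15. The signal peptidase subunit gene AT3G05230, which acts at the same channel, had 0.37 ± 0.14 against 0.68 ± 0.14, and AT3G53670 had 0.55 ± 0.15 against 0.77 ± 0.15. None of these 4 mutant changes passed.

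At the other end, AT3G55700, a UDP-glycosyltransferase gene, had 81.0, 87.1 and 68.5 in mutant mock and 108, 70.0 and 49.6 in mutant tunicamycin arrays. Wild type had 66.6, 59.6 and 55.7 in mock against 228, 251 and 239.7. The mutant groups overlapped and the wild-type groups were far apart. Its change was -0.12 ± 0.24 in the mutant, with a difference of -2.11 ± 0.34 (adjusted p = 0.0033). AT1G10980 had 77.2, 88.0 and 88.5 in mock against 57.5, 49.9 and 70.9 with tunicamycin in the mutant, and 57.4, 61.8 and 51.5 against 144, 90.8 and 108 in wild type. For both genes some of these groups lie around or below the filter value of 68.7, so the sizes are uncertain. AT1G10980 had -0.52 ± 0.22 in the mutant and 0.98 ± 0.22 in wild type, and their difference of -1.51 ± 0.31 passed (adjusted p = 0.016). It is the 1 of the 59 that was lower in the mutant at an unadjusted p below 0.05. AT1G29060 had 0.32 ± 0.22 against 1.35 ± 0.22, and that difference did not pass (adjusted p = 0.1).

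**Figure D4:**
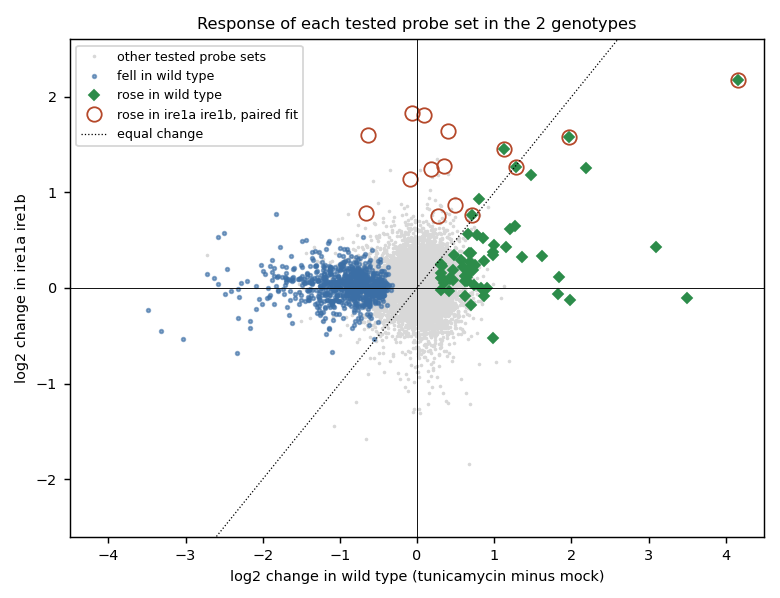
Log2 change of each of the 13647 tested probe sets in wild type (x) and ire1a ire1b (y), with the 59 wild-type rises, the 788 wild-type falls and the 15 mutant rises of the paired fit marked, and the dotted line showing equal change. The wild-type falls lie along 0 on the mutant axis, while 49 of the 59 wild-type rises lie above it.

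The 788 probe sets that fell in wild type did not fall as a group in the mutant. At an unadjusted p below 0.05 the mutant was lower in 13 (1.65%) and higher in 16 (2.03%), close to the 1.33% and 2.34% of all tested probe sets. All tunicamycin arrays lay under all mock arrays in 23 (2.92%), against 2.71% of all. The median change was 0.02 (0.04 without both arrays numbered 3) and the lowest -0.68. In 782 of 788 (99.2%) the 95% interval of the mutant's change stayed above -1, a 2-fold fall. The same share over all tested probe sets was not counted, so this bounds the changes without setting these probe sets apart. For the 288 that fell 2-fold or more in wild type the interval stayed above -1 in 282 (97.9%). All 288 intervals excluded the wild-type value. That outcome is favoured by the choice of large wild-type falls, and it leaves out the error of the wild-type value. Of the 6 whose interval reached -1, 5 varied widely between replicates, with an SE from 0.36 (AT5G19890) to 0.60 (AT1G33600). The other 1, 264900_at with no gene listed, had an SE of 0.16. Its mutant signals of 173, 163 and 152 in mock and 104, 90.5 and 113 with tunicamycin did not overlap. Its mutant change was -0.67 (95% interval down to -1.01, adjusted p = 0.39) and its wild-type change -1.10, and the difference of 0.43 did not pass (adjusted p = 0.52).

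Several of these transcripts encode abundant secretory cargo. PYK10, the beta-glucosidase of ER bodies, had 22742, 24039.9 and 22534 in the mutant mock arrays and 23333, 25042 and 25548 with tunicamycin, overlapping groups at a change of 0.09 ± 0.07 (95% interval -0.06 to 0.24). NAI2, which ER bodies need to form, had 0.10 ± 0.10, the vacuolar processing enzyme GAMMA-VPE 0.11 ± 0.24 and the subtilase ARA12 -0.07 ± 0.12. Each differed from wild type, by 1.28, 1.56, 2.74 and 1.17 (adjusted p from 1.3e-05 to 0.0016). Of the 7 tested vacuolar and ER body genes (12 listed) 0 changed in the mutant at an unadjusted p below 0.05. All named genes gave 2.29% higher and 1.4% lower, so 0 of 7 does not set these genes apart. Their median was 0.05, and -0.01 without both arrays numbered 3. In wild type 6 of the 7 fell, which itself favours a higher difference. The difference from wild type passed in 6, against 2.98% of all tested probe sets that were higher. The exception in the difference was BETA-VPE, a second vacuolar processing enzyme, with -0.41 ± 0.19 in the mutant and -0.46 ± 0.19 in wild type.

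Mutant levels of the other large wild-type falls spread to both sides of 0. ATPMEPCRB, which encodes a pectin methylesterase, had 457, 521 and 365 in mutant mock and 607, 737 and 593 in mutant tunicamycin arrays, which did not overlap. Wild type had 662, 510.3 and 449.9 in mock against 92.4, 82.5 and 92.8. The mutant change of 0.54 ± 0.17 (95% interval 0.17 to 0.90) did not pass, and the difference of 3.12 ± 0.24 did (adjusted p = 1.3e-05). OSM34, an osmotin-like defence protein, had 1248, 1549.7 and 1571 in mock against 978, 1073 and 1224 in the mutant, with tunicamycin lower on every array. Its -0.41 ± 0.20 did not pass, and its difference from the wild-type -2.17 ± 0.20 was 1.75 ± 0.28 (adjusted p = 0.003).

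The probe set 258791_at, with no gene listed, had 7623, 8614 and 8088 in mutant mock and 6327, 6004 and 5429 in mutant tunicamycin arrays, again lower without overlap. Its change was -0.45 ± 0.10 (adjusted p = 0.36), against -3.32 ± 0.10 in wild type. The peroxidase AT4G30170 (0.05 ± 0.20), the acid phosphatase family gene AT4G29270 (-0.03 ± 0.14), the chitinase ChiC (-0.02 ± 0.29), AT3G56060 (0.20 ± 0.36), AT1G21670 (0.07 ± 0.37) and the peroxidase AT5G19890 (-0.32 ± 0.36) had mutant changes between -0.32 and 0.20 that did not pass, and each differed from wild type by 2.01 or more in the interaction. That difference was lost without 1 array in 9 of the 12 fits for AT5G19890 and in 7 for AT1G21670.

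**Figure D5:**
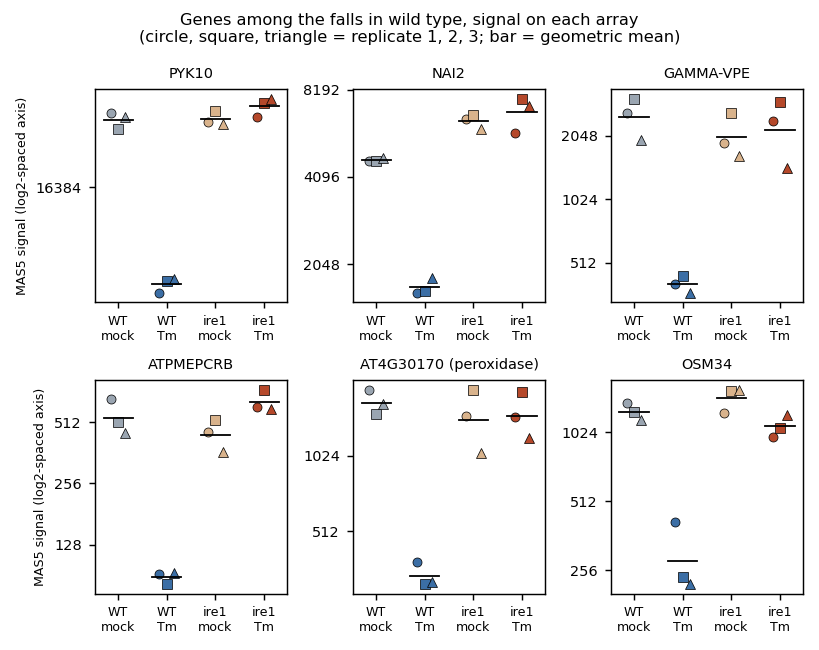
MAS5 signal (log2-spaced axis) of secretory cargo genes on each of the 12 arrays, with each point 1 array. The wild-type tunicamycin points lie below the mock points, while the ire1a ire1b points of both treatments lie close together, with ATPMEPCRB slightly higher and OSM34 slightly lower under tunicamycin.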

How the data were processed

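Total RNA of whole seedlings was hybridised to 12 one-colour arrays, 4 groups of 3. Per the labels and the submitters' processing notes, the deposited values are linear array intensity (signal) per probe set, made by the authors with MAS5, for which no version or settings were found in those notes. Every array carries the same trimmed mean, so changes are relative to the bulk of the array. The number of arrays limits the precision.

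Of 22810 probe sets 64 were controls. Of the other 22746, 13513 had 1 gene in GEO's platform table, 503 had several and 8730 had none listed, and 13436 of the single-gene probe sets matched the RefSeq table (TAIR10.1). Signals were taken as log2. Probe sets with a mean log2 signal above the 40th percentile (log2 6.10, signal 68.7) were tested in limma 3.58.1 (R 4.3.3): 1 mean per group over 12 arrays, eBayes with an intensity trend, two-sided, Benjamini-Hochberg adjustment over 13647 probe sets, threshold 0.05. Intervals are 95%. The interaction is the ire1a ire1b change minus the wild-type change. The 2 changes share no array but share the estimate of spread. A gene with several probe sets is given by its brightest probe set in list counts.

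The replicate numbers come from the labels, which do not say what they mark. The correlations of deviations (0.11, 0.44 and 0.51 in ire1a ire1b) each passed 0.1, so the numbers were treated as pairs there. In wild type they were 0.13, 0.02 and 0.12. Mutant mock array 2 and tunicamycin array 1, of different numbers, also passed 0.1 (0.16). The paired fit had the replicate number as a block within each genotype, wild type included.

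Named were, in ire1a ire1b, single-gene probe sets past the threshold, then those with the smallest p to 16 rises and 10 falls. From each list came the 4 genes of smallest p at most, and then the 10 largest wild-type rises and falls without overlap, BZIP60 and BZIP28. AT1G54650, AT3G05230, AT3G53670, AT3G55920, AT4G33720, AT5G40980, CRT1b, DER2.2, OS9, PDIL5-1, S1P and the probe sets with no gene were outside this rule and chosen after their values were seen. The comparison, its members, the gene lists and the naming rule were chosen with earlier results of these data known. The code was tested on simulated data. A planned search of promoters for ER stress motifs was not run, because no sequence was used here.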

Additional observations from a re-analysis of the deposited data

Results flagged for a closer look

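The difference between the genotypes' responses (log2 change in ire1a ire1b minus that in wild type) passed the limma interaction test for 22 named genes. Among transcripts that fell with tunicamycin in wild type, none of which passed in the mutant, the difference was 3.12 for ATPMEPCRB, 2.74 for GAMMA-VPE, 2.67 for AT3G56060, 2.37 for AT4G29270, 2.34 for AT4G30170, 2.31 for ChiC, 2.28 for AT1G21670 and 2.01 for AT5G19890. It was 1.75 for OSM34, 1.56 for NAI2, 1.28 for PYK10 and 1.17 for ARA12. Several of these 12 genes are named for their large wild-type change, which enters the difference.

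Of the genes that were chosen on the mutant's own values or from the lists, the difference was 2.23 for AT3G47540, 1.90 for AT3G14780, 1.45 for AT4G36430, 1.32 for AT2G18980, 1.06 for AT4G35985, 1.03 for AT3G21770 and 0.73 for the co-chaperone gene ATERDJ3B. In these 7 the mutant level was higher with tunicamycin. The remaining 3 differences ran the other way: -2.11 for AT3G55700, -1.73 for AT5G49100 and -1.51 for AT1G10980. Mutant arrays numbered 3 were the highest of their group in AT4G35985, AT3G14780, AT3G47540, AT4G36430 and AT3G21770 under tunicamycin, and their part in these differences was not tested beyond leaving them out.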

How the results depend on the processing

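The count of 6 rises in ire1a ire1b was 15 with the replicate block, 12 with the block and only the mutant arrays, 12 with array weights, 1 with only the mutant arrays and 3 to 8 without 1 array. It was 2 without both mutant arrays numbered 3, an alternative chosen after seeing the data. The count of 0 falls became 2 with the block and only the mutant arrays (252265_at and AT4G33720, a secreted pathogenesis-related family gene, at -1.22 and -1.58) and 1 with array weights (AT1G54650, -1.97, against -1.27 without weights). The 406 probe sets with a higher change in the mutant were 713 with the block, 853 with array weights and 275 to 608 without 1 array. The 12 with a lower change were 5 with a filter at the 60th percentile, 32 with the block, 87 with array weights, 24 without both arrays numbered 3 and 6 to 29 without 1 array (29 without mutant tunicamycin array 3, 6 without wild-type tunicamycin array 2). Of the wild-type rises, 18 were higher in the mutant at an unadjusted p below 0.05, with 30 of 134 wild-type rises under the block, 33 of 169 under array weights and 14 to 22 without 1 array. The cause of these moves was not tested. Of the values of single genes, 1748 kept their call or, uncalled in both fits, moved by less than the SD between replicates. Direction was not checked for uncalled values. For example, AT3G55700 had -0.12, and 0.05 without both mutant arrays numbered 3. The call was lost in 22 and gained in 20, and 22 uncalled values moved by the SD or more. No value called in either fit reversed. Of the list medians 261 stayed and 15 moved. Besides the values given with it, the block changed the call of the genotype difference for AT1G33600 (adjusted p = 0.059 without and 0.00024 with it) and AT1G64460 (0.086 and 0.046), and no other mutant call or genotype difference of a named gene. The smallest mutant change that passed without the block was 1.25, and a p above the threshold does not show that a transcript did not change, and falls common to most transcripts would not be seen after MAS5 scaling.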
